A study of Mus musculus with 20 samples.

Results

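The promoters of 48 genes of homeobox and paired-box (Pax) families outside the Hox clusters were examined in hematopoietic stem cells (HSCs). The cells came from mice given repeated low-dose 5-fluorouracil (5FU). Some Pax genes, such as Pax1 and Pax9, hold no homeobox, and all 48 genes are called homeobox genes below for short. They were the Dlx, Nkx, Pax, Six2, Six3, Six6, En, Emx, Otx, Barhl, Gsc, Gbx, Gsx, Pitx, Msx, Vax and Irx genes on a fixed list, and their bins were all 100 bp bins that lay within 1 kb of any RefSeq transcription start site (TSS) of a listed gene. This gave 817 of the 1201951 deposited bins, with 5 to 36 bins per gene (median 16) and at least 1 bin for each of the 48 genes. The bins were taken by gene name and position, with no methylation threshold, and the genes were listed with earlier results of these data known.

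DNA methylation was measured by reduced representation bisulfite sequencing (RRBS), which reads CpG sites in restriction fragments, in 20 samples labelled as HSCs of genotype C57BL/6. The mice were female C57BL/6J, 3 months old at the start, and received 0 (0x, 4 samples), 2 (2x, 6 samples), 4 (4x, 4 samples) or 10 (10x, 6 samples) cycles of 5FU, an antimetabolite that is toxic to dividing cells, at intervals of 3 weeks. HSCs were collected 1 month after the last cycle. Blood is the tissue in the labels, while in the methods the cells came from marrow. Whether each sample is 1 mouse is not stated, and p-values therefore reflect the spread among these 20 samples alone, part of which may be technical.

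Homeobox proteins bind DNA through a shared fold and set the identity of regions and cell types in the embryo. Most of the genes listed here act in brain, eye, limb, heart, vertebra or endoderm. Their promoters are textbook examples of CpG islands that Polycomb complexes keep silent with histone marks in cells that do not use them, usually without DNA methylation. Methylation of such islands is a known feature of cultured, ageing and malignant cells.

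The sequences the results turn on are shown first, as read from the GRCm38.p6 (mm10) assembly with each CpG in capitals. The 250 bases before the TSS of Gbx2, Gsc and Nkx6-1 show how dense CpG sites are in these promoters. They are written on the strand of the gene (minus), at chr1:89931177-89931426, chr12:104473237-104473486 and chr5:101664712-101664961.
Gbx2 upstream: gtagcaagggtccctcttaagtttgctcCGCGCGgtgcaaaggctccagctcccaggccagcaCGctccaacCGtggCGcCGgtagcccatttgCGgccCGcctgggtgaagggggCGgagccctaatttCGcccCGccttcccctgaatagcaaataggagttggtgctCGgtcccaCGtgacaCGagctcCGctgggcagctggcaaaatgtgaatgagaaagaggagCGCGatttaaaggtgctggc
Gsc upstream: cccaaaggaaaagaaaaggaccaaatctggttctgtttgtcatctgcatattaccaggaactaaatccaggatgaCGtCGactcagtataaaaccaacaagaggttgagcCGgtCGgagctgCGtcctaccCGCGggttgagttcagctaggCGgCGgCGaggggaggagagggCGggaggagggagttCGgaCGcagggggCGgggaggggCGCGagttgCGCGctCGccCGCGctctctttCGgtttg
Nkx6-1 upstream: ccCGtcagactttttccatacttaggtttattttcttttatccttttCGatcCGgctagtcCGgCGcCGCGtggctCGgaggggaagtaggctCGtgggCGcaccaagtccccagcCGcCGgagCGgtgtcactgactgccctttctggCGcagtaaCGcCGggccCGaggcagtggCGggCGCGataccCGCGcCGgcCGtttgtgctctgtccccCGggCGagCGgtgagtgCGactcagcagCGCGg
They held 18, 22 and 30 CpG sites. All 48 genes have RefSeq start sites, and 35 of them were in the set of RefSeq promoter sequences used here (42 promoters of 300 bases). These held a median of 17.5 CpG sites (6 to 42), against 7 over all 32851 promoters of that set. The sequence CCGG, the site at which RRBS fragments are usually cut, was present in 85.71% of these 42 promoters and in 52.78% of all.

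The bins below, all on the plus strand, are among those described in the text. The first 2 are the Gbx2 bin (chr1:89931500-89931599, 374 bp upstream of the TSS, 5 CpG) and the Gbx1 intron bin (chr5:24526000-24526099, 798 bp downstream, 8 CpG).
Gbx2 bin: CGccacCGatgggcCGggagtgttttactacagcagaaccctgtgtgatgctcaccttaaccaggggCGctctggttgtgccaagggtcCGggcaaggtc
Gbx1 bin: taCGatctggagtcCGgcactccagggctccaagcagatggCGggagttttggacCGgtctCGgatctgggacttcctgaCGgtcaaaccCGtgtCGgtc
The next is the Gsc bin in a coding exon (chr12:104472800-104472899, 386 bp downstream, 11 CpG), followed by the Nkx2-5 bin in an intron (chr17:26840900-26840999, 615 bp downstream, 4 CpG), the Pitx1 bin outside the gene (chr13:55836500-55836599, 360 bp upstream, 3 CpG) and the Irx5 bin in an intron (chr8:92358600-92358699, 854 bp downstream, 10 CpG).
Gsc bin: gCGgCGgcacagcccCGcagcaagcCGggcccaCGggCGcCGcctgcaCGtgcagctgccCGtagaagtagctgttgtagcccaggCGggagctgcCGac
Nkx2-5 bin: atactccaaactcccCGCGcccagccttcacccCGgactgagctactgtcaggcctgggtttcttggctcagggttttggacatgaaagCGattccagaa
Pitx1 bin: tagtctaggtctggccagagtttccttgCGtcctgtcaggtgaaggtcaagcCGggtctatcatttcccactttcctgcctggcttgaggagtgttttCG
Irx5 bin: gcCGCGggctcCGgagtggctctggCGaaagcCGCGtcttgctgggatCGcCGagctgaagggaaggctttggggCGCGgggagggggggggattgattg
A bin with 1 CpG site (Irx4, chr13:73258500-73258599, 1039 bp upstream by its middle) and the bin with the most sites among those free of untranslated exon sequence (Gbx1, chr5:24526600-24526699, coding exon, 19 CpG) mark both ends of CpG density.
Irx4 bin: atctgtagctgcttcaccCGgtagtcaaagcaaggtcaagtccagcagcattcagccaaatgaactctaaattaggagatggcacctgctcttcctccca
Gbx1 exon bin: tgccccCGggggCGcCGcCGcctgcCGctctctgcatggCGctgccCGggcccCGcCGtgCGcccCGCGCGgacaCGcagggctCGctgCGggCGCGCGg

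The deposited values are percent methylation per bin and sample, with no read numbers, so that the depth behind a value is unknown and no counting interval can be given. Bins missing in a sample had been filled by the authors from the group, and filled values are not marked. A value other than 0 or 100 that recurred exactly within a group was therefore taken as repeated. In 241 of the 817 bins, which cover 46 genes, every group varied and no value was repeated, and all tests below use these bins unless another set is named. In 503 bins (61.57%) no value was repeated, which includes 97 bins with the same value in all 20 samples (94 of them at 0), and 314 bins (38.43%) held a repeated value. Dlx5 and Pax8 had no bin among the 241. Repeated values were unevenly spread over the groups. They were found in 81 bins for 0x (9.91%), 217 for 2x (26.56%), 56 for 4x (6.85%) and 110 for 10x (13.46%), close to the shares over all promoter bins (11.21%, 24.33%, 8.90% and 15.37%). Other transcripts overlapped 48 of the 241 bins.

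The homeobox promoters were low in methylation in every group. In 0x the mean over the 241 bins was 5.39% ± 0.760 (SD, n = 4), with 5.91%, 6.15%, 4.97% and 4.55% in the samples with label numbers 01, 02, 13 and 14. Of the 241 bins, 87.14% were under 10% in 0x, 96.27% were under 20% and 0 reached 50%, whereas over all 32880 promoter bins of the same set 77.24% were under 10% and 10.78% reached 50%. At the low end the order in this set was the other way, with 61.41% of the homeobox bins and 65.45% of all promoter bins under 5%, and a median bin of 3.6% and 2.95%. Over all deposited bins that order turned. There 68.3% of the homeobox bins and 55.97% of all promoter bins were under 5%, with a median bin of 2.26% and 3.01%. The lower mean of the homeobox bins thus went with few bins of high methylation. In each of the 20 samples the mean of the homeobox bins, 4.55% to 7.62%, was below that of all other promoter bins, 13.56% to 14.44%. Because the assay reads a population of cells, a bin at 5% can be a few cells with full methylation or many with little, and these cannot be told apart.

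Over the whole window methylation was lower in the homeobox promoters than in the other promoter bins. Within 250 bp downstream of the TSS the 0x mean was 4.23% ± 1.27 in 50 homeobox bins and 9.02% ± 0.0766 in the other promoter bins (SD over 4 samples). Between 1000 and 750 bp upstream the other promoter bins reached 41.81% ± 0.993, and the 7 homeobox bins stood at 6.44% ± 5.03. All 50 deposited homeobox bins of that interval were higher, at 13.95% ± 1.67, and the 23 with a repeated value were at 23.23% ± 2.52. Within 250 bp upstream the 130 deposited homeobox bins were at 2.78% ± 0.551, so that methylation rose away from the TSS in these sets. Between 750 and 1000 bp downstream the values were 6.91% ± 0.871 in 24 homeobox bins and 27.3% ± 0.769 in the others. The same held by CpG number. Bins with 0 to 2 CpG sites had a 0x mean of 10.64% in the homeobox promoters (12 bins) and 48.73% in the others, and the homeobox bins were lower in 20 of 20 samples. With 3 to 5 sites the means were 7.89% (56 bins) and 28.8%, again lower in 20 of 20 samples. With 6 to 9 sites they were 5.27% (80 bins) and 9.25%, also lower in 20 of 20 samples (differences of -5.29 to -1.83 points). With 10 or more sites they were 3.33% (93 bins) and 3.89%, and the homeobox bins were lower in 14 of 20 samples. The contrast thus grew smaller as CpG sites became more numerous. These are descriptions of the bins, and no test of the genes against other genes was made.

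**Figure D1:**
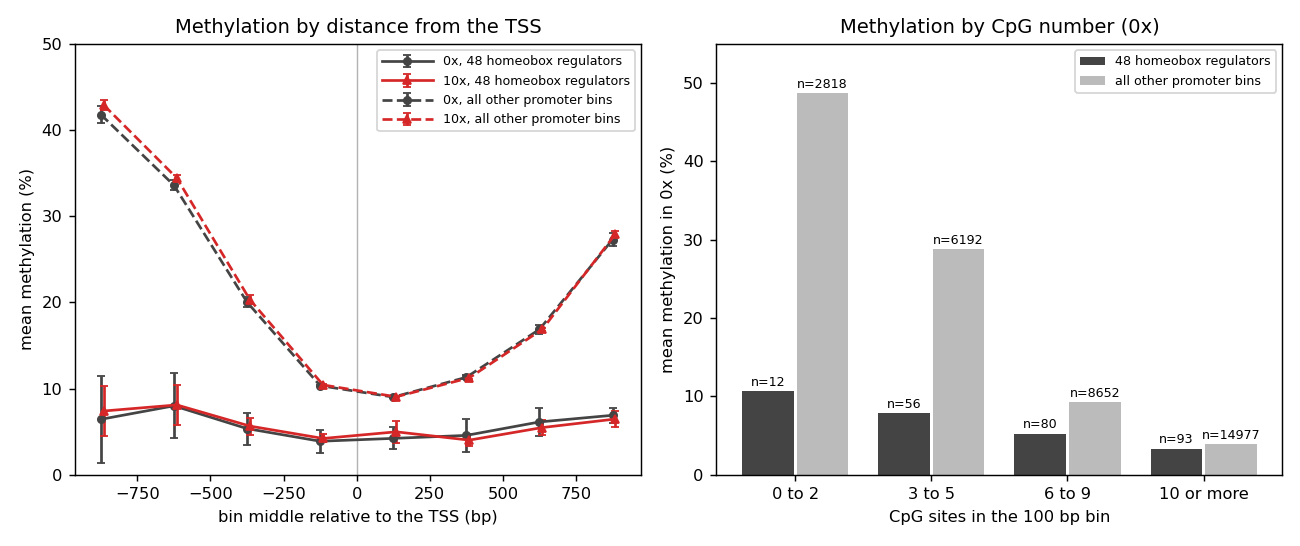
Left, mean methylation (%) of bins by distance of the bin middle from the TSS in 0x and 10x, for the homeobox regulators (solid lines) and all other promoter bins (dashed lines), with bars for the SD over samples. Right, mean methylation in 0x by number of CpG sites in the bin, with n the number of bins; the homeobox bins are at 10.64% or less in all 4 classes, and the other promoter bins fall from 48.73% to 3.89%.

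Among the 241 bins, those in introns had the highest mean in 0x. The 60 intron bins had a 0x mean of 7.96%, the 64 bins in coding exons 4.50%, the 66 in the non-coding part of an exon 3.72% and the 51 outside the gene 5.67%. This order depended on the group and the set. In 10x the same bins were at 7.03% outside the gene and 6.79% in introns. Over all deposited homeobox bins the 0x means were 7.45% outside the gene (215 bins) and 6.64% in introns (199 bins). A mean of at least 20% in 0x was found in 9 of the 241 bins, 5 of them in introns. Barhl1, a regulator of neurons in the central nervous system, was at 23.3%, 60.4%, 16.6% and 14.3% in the 0x samples in an intron bin (7 CpG), and Pax1, which is needed for vertebrae and thymus, at 20.3%, 50%, 11.8% and 12.3% (3 CpG). In both bins sample 02 was far above the other 0x samples, so that the Barhl1 mean of 28.7% stood above the median of 19.9%. The same sample was the highest of 0x in the Dlx3 bin (68.3%) and the Pax2 bin (75.6%), in which the other 0x samples were at 0% to 17.4% and 0% to 6.42%. The Nkx2-5 bin stood apart from these, with 31.1%, 31.8%, 22.4% and 20.1% in 0x, a narrow spread.

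By gene, the promoter mean in 0x ran from 1.43% in Vax2, an eye and forebrain regulator, to 16.7% in Pitx1, which directs hindlimb and pituitary development, with a median of 4.49% over the 46 genes, and 42 of the 46 were under 10%. The median over all 14937 genes with such bins was 3.6%, and 70.5% of them were under 10%. The 5 highest genes were Pitx1, Nkx2-5 (16.3%), Otx2 (11.6%), Emx1 (11.6%) and Six6 (9.89%), all regulators of the pituitary, heart, forebrain or eye. The 5 lowest were Vax2, Msx1 (1.68%), Msx2 (1.68%), Nkx6-1 (1.97%) and Gbx2 (2.09%), which act in eye, limb, face, pancreas and the midbrain boundary. Many neighbours in this order did not differ beyond their spread. Emx1, a marker of the cerebral cortex, was at 15.2%, 0.0622%, 2.38% and 28.6% in the 0x samples, so that its place rests on samples 01 and 14. Pitx1 was at 18.8%, 22.4%, 14.1% and 11.3%, above each 0x value of Gbx2 (3.12%, 2.02%, 2.91% and 0.305%).

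**Figure D2:**
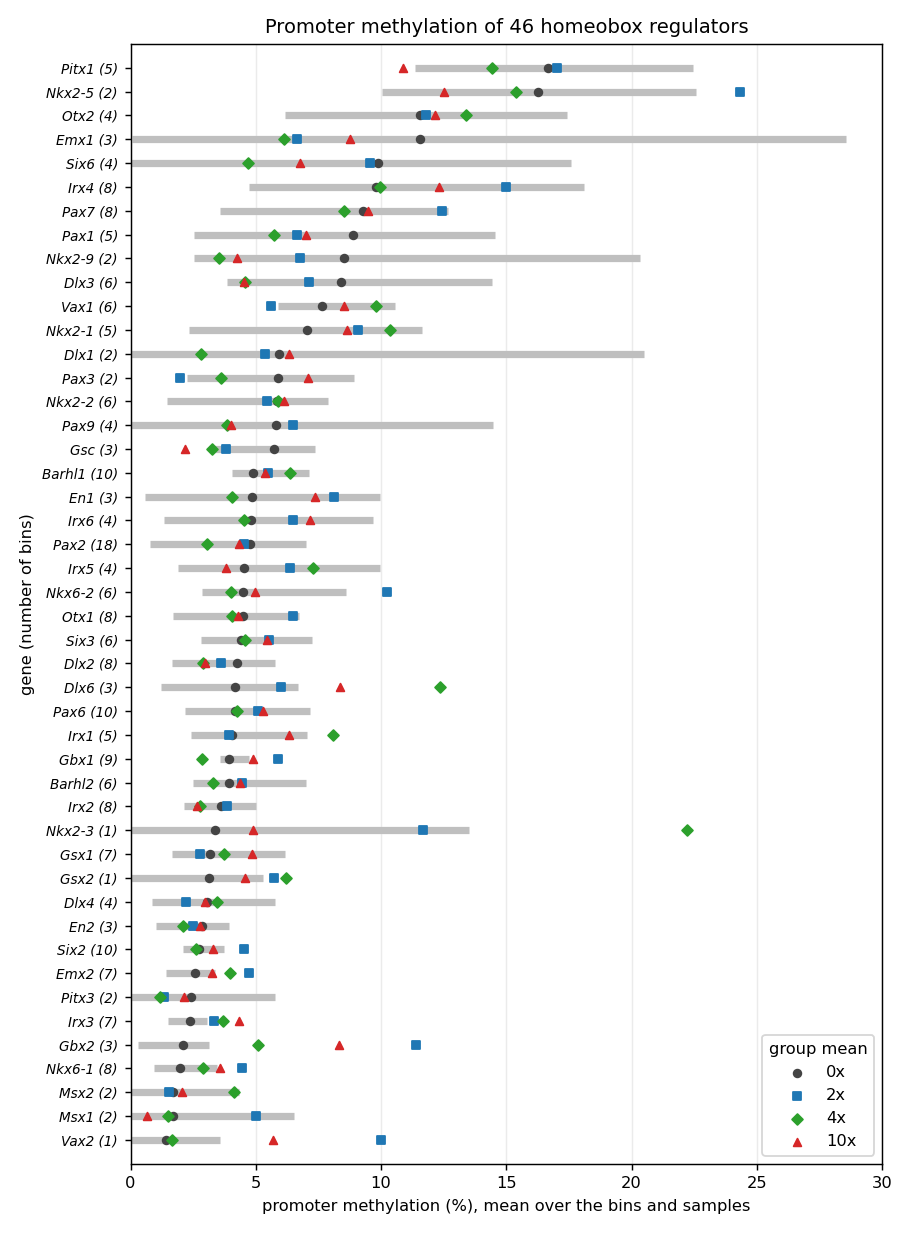
Promoter methylation (%) of the 46 homeobox regulators, as the mean over their bins without repeated values (number of bins in brackets), ordered by the 0x mean. Symbols are group means and the grey bar spans the 4 samples of 0x. In 0x 42 of the 46 genes are under 10%, and Pitx1 and Nkx2-5 are the highest.

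The ranges of the families overlapped in 0x. Their means ran from 4.66% ± 1.53 for Six2, Six3 and Six6, regulators of kidney, forebrain and eye, to 5.98% ± 2.97 for the 6 Pax genes with bins, the paired-box regulators. The Irx genes, which pattern heart, limb and nervous system, were at 5.05% ± 1.38, and the Dlx genes, which act in jaw, limb and inhibitory neurons, at 5.26% ± 1.49. The Nkx family had the widest spread after 2 cycles, from 4.21% to 16.3% between samples, against 4.56% to 6.06% in 0x. The upper end was 1 sample, 2x sample 03. In it Nkx2-1, Nkx2-3, Nkx2-5 and Nkx6-2 were at 23.1% to 54.0%, and Nkx2-2, Nkx2-9 and Nkx6-1 at 2.78% to 3.49%.

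Other homeobox genes were set beside them. For 47 of 52 further developmental homeobox genes the median promoter level in 0x was 6.96%, and for 14 of 16 homeobox genes that are used in blood cells it was 2.38%, with 0.713% to 18.1% between genes. Of 12 genes typical of HSCs and blood, 5 had bins in the set and a median of 3.66%, and of 16 genes of mature blood cells, 4 had bins and a median of 38.27%. In all deposited bins, 10 of the HSC and blood genes had 141 bins with a 0x mean of 9.81%, and 15 of the genes of mature cells had 57 bins with a mean of 46.9%, of which 86 and 32 held no repeated value. On average, promoters of HSC genes were lower in methylation than those of mature cells in these samples, and no expression was measured. Single genes overlapped, with the 5 HSC and blood genes at 0.547% to 4.78% and the 4 of mature cells at 3.65% to 69.3%. In all deposited bins the median CpG number was 5 for the first list and 3 for the second. The part of this in the difference was not tested.

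The first question was whether methylation of these promoters moved with the number of 5FU cycles. The mean over the 241 bins was 6.43% ± 1.03 (n = 6) in 2x, 5.27% ± 0.465 (n = 4) in 4x and 5.58% ± 0.224 (n = 6) in 10x, which differ from 0x by 1.04, -0.13 and 0.19 percentage points. The 2x samples ran from 4.95% to 7.62% (median 6.46%), the 4x samples were at 5.07%, 5.95%, 4.92% and 5.12%, and the 10x samples ran from 5.29% to 5.97% (median 5.56%). All 3 groups overlapped with 0x. The direction depended on the label numbers for 4x and 10x. Among the samples numbered 01 to 12 the differences from 0x were -0.521 points in 4x and -0.413 in 10x, and among those numbered 13 to 34 they were 0.265 and 0.804. Without 0x sample 14 the 10x difference was -0.0961, and without 0x sample 02 the 4x difference was 0.123 points.

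The bins with repeated values gave other numbers. In the 503 bins without a repeated value the group means were 4.76%, 4.22%, 4.64% and 4.86%, in the 314 bins with one they were 7.73%, 8.90%, 7.54% and 7.91%, and in all 817 they were 5.90%, 6.02%, 5.75% and 6.03%. The difference of 2x from 0x was thus -0.53 points in the first set and 1.17 in the second. The share of the 241 bins at exactly 0 had a median of 28.63% over the samples of 10x, 36.93% over those of 4x, 35.89% over those of 0x and 55.19% over those of 2x, so that the share of bins at 0 was highest in the group with the most repeated values. The part of this in the group means was not tested.

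**Figure D3:**
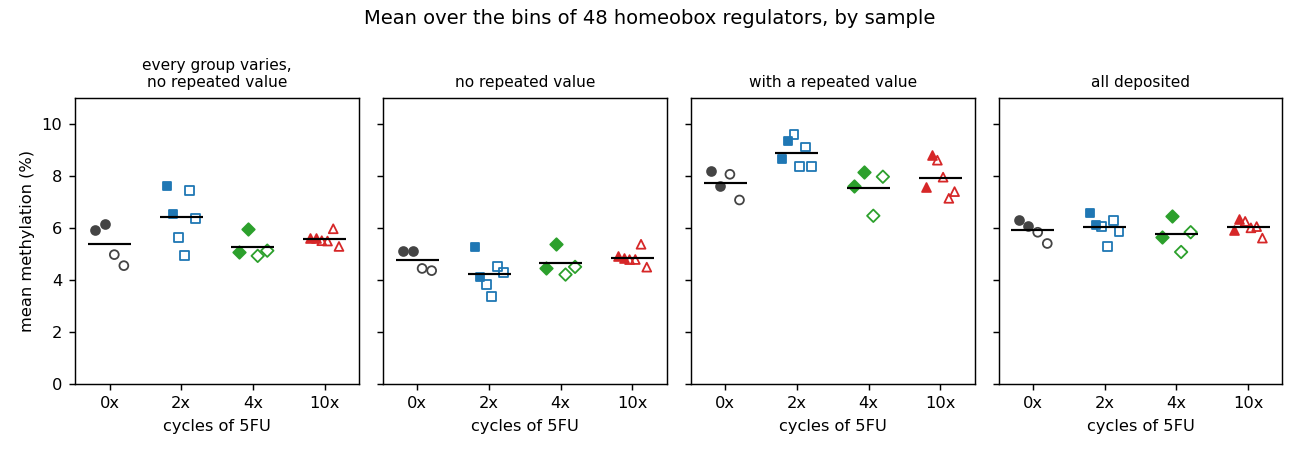
Mean methylation (%) over the homeobox bins in each sample, in 4 sets of bins (from left, 241, 503, 314 and 817 bins); filled symbols are label numbers 01 to 12, open symbols 13 to 34, and lines are group means. The 2x mean lies above that of 0x for 241 and 314 bins and below it for 503 bins.

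No homeobox bin passed the test for a difference from 0x in any group. With limma, at an adjusted p under 0.05 over 84131 bins and a difference of at least 10 points, 0 of 241 bins were called in 2x, 4x and 10x, where the background over all bins was 0.00357%, 0.00713% and 0.0131%. At an unadjusted p under 0.05 with the same minimum, 1, 1 and 4 bins were past it (0.415%, 0.415% and 1.66%), against 1.57%, 1.61% and 2.10% of all promoter bins. For the slope over cycles 0 of 241 bins were called (background 0.00119%), and 6 (2.49%) had an unadjusted p under 0.05, against 2.83% of promoter bins. In none of these comparisons did the share of homeobox bins exceed the background. The comparison is weak for the calls. With such low backgrounds at the adjusted threshold, 0 calls among 241 bins would be found for most lists of this size. A bin under 10% in 0x cannot fall by the minimum of 10 points. Such bins made up 87.14% of the homeobox bins and 77.24% of all promoter bins of the set. In a plot of single bins the spread within groups is seen beside the differences.

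**Figure D4:**
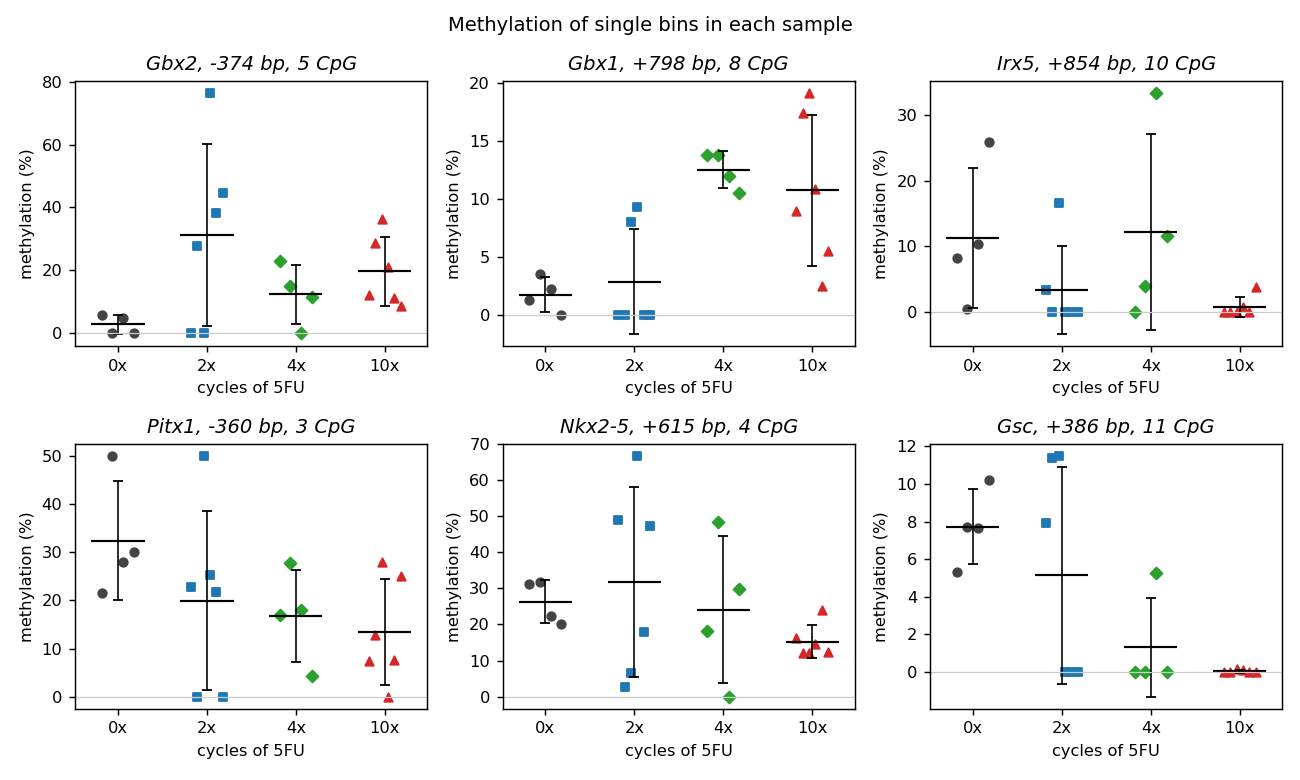
Methylation (%) of 6 single bins in each sample by group, with the position relative to the TSS and the number of CpG sites above each panel. Lines and bars are means and SD; in the Gbx2 bin each 10x value exceeds the highest 0x value, and in the Gsc bin each is under the lowest. The scales differ between panels.

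Gbx2, which positions the boundary between midbrain and hindbrain, held the only one of the 4 bins past the unadjusted threshold in 10x that was higher than 0x, while the other 3, in Irx5, Pitx1 and Nkx2-5, were lower. Its upstream bin was at 5.79%, 0%, 4.80% and 0% in 0x, at 0% to 76.5% (median 32.9%) in 2x, at 22.7%, 14.8%, 0% and 11.4% in 4x, and at 8.60% to 36.2% (median 16.5%) in 10x. All 10x samples were above all 0x samples, while 2 samples of 2x and 1 of 4x were at 0. The 10x difference was 16.9 points (SE 5.46, unadjusted p = 0.0122), with an adjusted p of 0.593 in limma. The 2x difference of 28.5 points had an SE of 13.9 and an adjusted p of 0.998.

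Gbx1, a relative of Gbx2 that acts in the spinal cord and forebrain, had the smallest unadjusted p of the 241 bins in 4x. Its intron bin was at 1.35%, 3.56%, 2.25% and 0% in 0x, and at 13.8%, 13.8%, 12% and 10.5% in 4x. The 4x samples lay close together and all above 0x. The difference of 10.7 points (SE 1.64, unadjusted p = 0.000272) had an adjusted p of 0.558 in limma. In 10x the bin ran from 2.56% to 19.1% (median 9.94%), which overlapped with 0x, and in 2x 4 of 6 samples were at 0. The exon bin with 19 CpG sites was at 3.97%, 1.29%, 1.58% and 0% in 0x and from 2.04% to 5.93% in 10x, which overlapped, and at 0% in 4 of 6 samples of 2x with 33.3% in another. The promoter mean over the 9 bins of the gene lay the other way from the intron bin, at 3.94% ± 0.521 in 0x and 2.86% ± 1.29 in 4x (adjusted p = 0.976).

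Gsc, the goosecoid gene of the embryonic organizer, carried the lowest adjusted p of the 241 bins in the 3 comparisons. Its exon bin was at 5.32%, 7.71%, 7.64% and 10.2% in 0x, from 0% to 11.5% (median 3.97%) in 2x, at 0%, 0%, 5.26% and 0% in 4x, and from 0% to 0.182% in 10x. Every 10x sample was below every 0x sample, whereas 2x held 3 samples at 0 and 3 at 7.95% or more. The 10x difference of -7.68 points (SE 1.23, unadjusted p = 0.000129) had an adjusted p of 0.131 in limma and was below the minimum of 10 points, and the slope of -0.70 points per cycle had an unadjusted p of 0.00408 and an adjusted p of 0.975. The bin was named for its slope after its values had been seen.

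Among the bins with the higher levels, the Nkx2-5 bin, in a gene needed for the heart, ran from 12.1% to 24% (median 13.5%) in 10x against 20.1% to 31.8% in 0x, with 1 sample of 10x inside the range of 0x. The difference was -11.1 points (SE 3.24, adjusted p = 0.525). In 2x this bin ran from 2.78% to 66.7% and in 4x from 0% to 48.4%, on both sides of 0x. The Pitx1 bin was at 21.4%, 50%, 28.0% and 30% in 0x and ran from 0% to 28.0% (median 10.2%) in 10x, a difference of -18.9 points (SE 6.93, adjusted p = 0.687).

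The Irx5 bin, in a gene of heart and retina, was at 8.24%, 0.451%, 10.4% and 25.9% in 0x and ran from 0% to 3.87% in 10x, a difference of -10.5 points (SE 4.10, adjusted p = 0.730). One 0x sample lay within the range of 10x. The Irx4 bin with a single CpG site, near a gene of the heart ventricle, was at 100%, 0%, 25% and 47.1% in 0x, and at 100% in 4 of 6 samples of 2x. Its 2x difference of 45.2 points (SE 18.8, adjusted p = 0.998) was the largest of the 241 bins in that comparison, and the 4 samples of 0x already spanned the whole scale.

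The same bins showed large single values. The Nkx2-1 bin (84 bp upstream, 5 CpG), near a regulator of lung and thyroid, was at 100% in 1 sample of 2x and at 0% to 7.81% in the other 5, and at 0%, 9.14%, 44.2% and 48.2% in 4x. The Dlx3 bin was at 50% and 59.1% in the 2x samples 03 and 04 and at 0% to 14.1% in the other 4. The single Nkx2-3 bin, in a gene of gut and spleen, was at 0%, 26.9%, 42.4% and 19.6% in 4x and above 0 in 1 of 4 samples of 0x, 2 of 6 of 2x and 1 of 6 of 10x. In the bin of Otx2, a forebrain regulator, 3 of 6 samples of 2x were at 0, and the 2x difference was -12.6 points (SE 7.18, adjusted p = 0.998).

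By promoter, 0 of 46 genes passed an adjusted p under 0.05 in 2x, 4x or 10x, where the background over 14937 genes was 0.00%, 0.00% and 0.0335%. At an unadjusted p under 0.05 there were 0, 1 and 3 genes (0%, 2.17% and 6.52%), against 3.27%, 3.78% and 6.12% of all genes. The slope over cycles called 0 genes (background 0.00%), and 1 gene (2.17%) had an unadjusted p under 0.05, against 3.74%. The samples of a treated group and of 0x did not overlap in 1 gene in each comparison (2.17%), against 0.636%, 2.19% and 1.39% of all genes. These genes were Gbx1 in 2x, Irx3 in 4x and Gbx2 in 10x. The smallest adjusted p of the 46 genes was 0.9999 in 2x, 0.976 in 4x, 0.63 in 10x and 0.982 for the slope.

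Higher and lower genes were mixed. In 2x 28 genes were above 0x and 18 below, with a median difference of 0.63 points, against 0.23 over all genes. In 4x 21 were above and 25 below (median -0.25, all genes -0.09), and in 10x 28 were above and 18 below (median 0.46, all genes -0.01). Of the other 47 developmental homeobox genes, 20 were above 0x after 2 cycles, 24 after 4 cycles and 24 after 10 cycles. An unadjusted p under 0.05 was reached by 2 of them in each comparison, all lower than 0x. Of the 14 blood homeobox genes 8 were above 0x in each comparison. The 3 comparisons share the 4 samples of 0x.

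**Figure D5:**
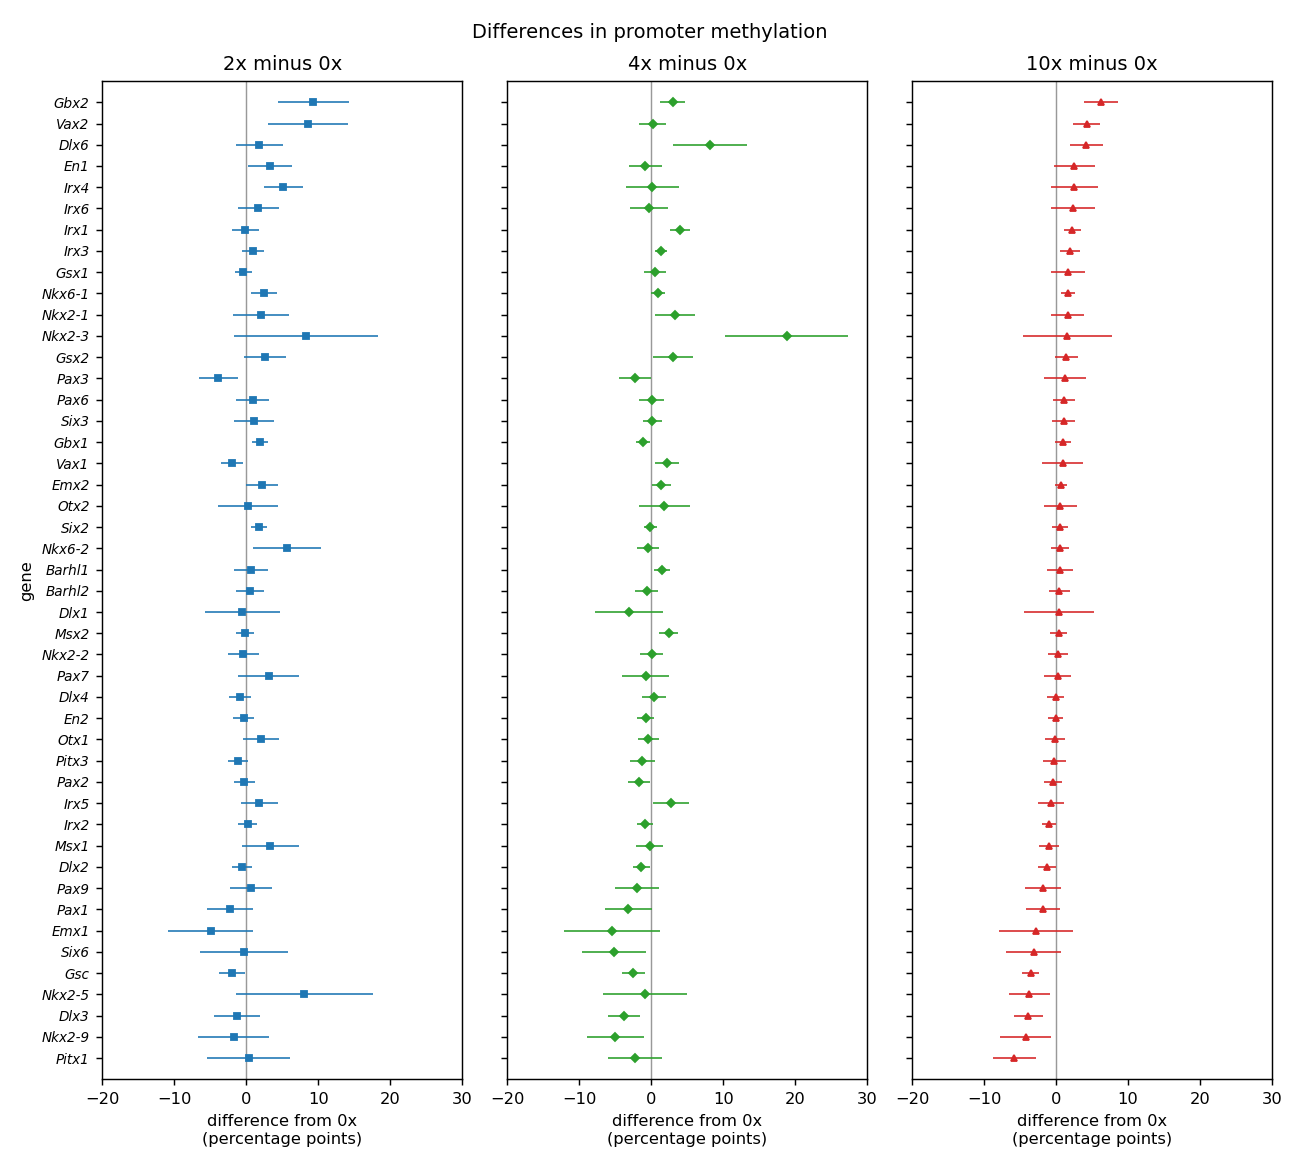
Difference in promoter methylation from 0x (percentage points) in 2x, 4x and 10x for the 46 genes, ordered by the 10x difference, with bars for the SE from limma. The largest increases in 10x are Gbx2, Vax2 and Dlx6 and the largest decreases Pitx1, Nkx2-9 and Dlx3, and none passed an adjusted p under 0.05.

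The increases with an unadjusted p under 0.05 were those of Irx1, Gbx2 and Vax2. Irx1, which patterns the neural plate, was at 3.94%, 7.06%, 2.76% and 2.43% in 0x and at 8.35%, 5.83%, 10.0% and 8.07% in 4x, with 1 sample of each group inside the range of the other. The difference was 4.02 points (SE 1.43, unadjusted p = 0.025, adjusted p = 0.976). In all deposited bins, repeated values included, it was 5.61 points and passed (limma, adjusted p = 0.00905). The Gbx2 promoter ran from 3.67% to 15.4% in 10x against 0.305% to 3.12% in 0x, a difference of 6.22 points (SE 2.32, unadjusted p = 0.0244, adjusted p = 0.717). Its 3 bins include the upstream bin above. Vax2, measured by 1 bin, was at 2.16%, 3.58%, 0% and 0% in 0x and ran from 2.55% to 11.6% in 10x (difference 4.27, SE 1.87, unadjusted p = 0.0474, adjusted p = 0.816), with overlap.

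The only decrease with an unadjusted p under 0.05 was that of Gsc in 10x. The promoter was at 3.15%, 7.38%, 6.91% and 5.44% in 0x and ran from 0.0272% to 3.66% in 10x, a difference of -3.56 points (SE 1.12, unadjusted p = 0.0106, adjusted p = 0.63), with 2 samples of 10x above the lowest of 0x. Gsc was also the gene with an unadjusted p under 0.05 for the slope, at -0.29 points per cycle (limma, unadjusted p = 0.0423, adjusted p = 0.982).

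Other large differences rested on wide spreads. In 4x, Nkx2-3 differed by 18.9 points, Dlx6, a limb and jaw regulator, by 8.17 and Nkx2-1 by 3.29. Dlx6 was at 6.75%, 2.73%, 27.7% and 12.2% in 4x, against 1.24% to 6.67% in 0x. In 2x, Vax2 differed by 8.57 points, Nkx2-5 by 8.08 and Gbx2 by 9.30, and the 2x samples of Gbx2 ran from 0.0311% to 25.6%. In 10x, En1, which acts with Gbx2 at the midbrain boundary, differed by 2.51 points and Dlx6 by 4.17. Decreases in 10x were -5.80 points for Pitx1, -4.26 for Nkx2-9, -3.87 for Dlx3 and -3.73 for Nkx2-5. In 2x, Emx1 differed by -4.90, Pax3, of neural crest and muscle, by -3.90, Pax1 by -2.22 and Vax1 by -2.02. In 4x, Emx1 differed by -5.45, Six6 by -5.20, Nkx2-9 by -4.97 and Dlx3 by -3.80.

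Most of these differences depended on 1 sample or on the set of bins. Of the 24 largest differences, 4 in each direction in each comparison, 18 were brought nearer to 0 by more than 1.5 times, or past it, when 1 sample was left out. Without 0x sample 14 the differences of Emx1 were 0.77 in 2x and 0.22 in 4x. In the same gene all deposited bins gave 4.85 in 2x and 3.92 in 4x, and repeated values set to missing gave 1.73 and 2.81, so that its direction rested on the bins as well as on that sample. Without 0x sample 01 Nkx2-9 was at -0.323 in 10x and -1.04 in 4x, and Six6 at -2.63 in 4x. Without 0x sample 02 Dlx3 was at -1.85 in 10x and -1.78 in 4x, Nkx2-5 at -1.61 in 10x, and in 2x Pax1 was at -0.334 and Vax1 at -1.05. These 0x samples enter all 3 comparisons. Among the increases, Nkx2-3 (8.29 in 2x) was at 0.622 and Nkx2-5 at 2.15 without 2x sample 03, and Vax2 at 4.33 without 2x sample 18. Without 4x sample 19 Dlx6 was at 3.04 and Nkx2-3 at 12.1 in 4x, and Nkx2-1 was at 1.72 without 0x sample 13. In 10x Dlx6 was at 2.52 without sample 33 and En1 at 0.999 without sample 32. The 6 differences that no single sample reduced in this way were those of Gbx2 in 2x and 10x, Vax2 and Pitx1 in 10x, Pax3 in 2x and Irx1 in 4x.

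Other sets of bins turned some directions with all samples kept. The differences of Gbx2 were -2.81 to -0.28 in 2x and -2.43 to -1.51 in 4x over 4 other sets. Its 10x difference stayed above 0, at 0.793 to 16.9 over 31 alternatives. Many of these, such as leaving out a 2x or 4x sample, cannot alter a 10x difference, so their number is no measure of its stability. In 1 or 2 of the other sets or windows, the difference in 2x reached -1.34 for Nkx2-3, -0.351 for Nkx2-5 and 0.49 for Pax1, that in 4x 2.13 for Nkx2-9 and 2.21 for Six6, and that in 10x 2.81 for Nkx2-5.

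In wider sets of bins, calls appeared and most of them involved repeated values. Over the bins without a repeated value in which some sample differs (406 homeobox bins), 2, 1 and 0 were called in 2x, 4x and 10x (0.49%, 0.246% and 0%), against 1.64%, 0.933% and 0.924% of 283752 bins. The call in 4x was the Gbx1 intron bin (limma, unadjusted p = 3.19e-05, adjusted p = 0.0037). This bin is 1 of the 241, where its adjusted p was 0.558 in limma with the same values. Only the bins fitted and adjusted together with it differ between the fits, so the call rests on the choice of set. Both calls in 2x were in bins in which the 2x samples all held 1 value. In a bin 356 bp upstream of Dlx4 with 2 CpG sites, which overlaps Dlx4os, all samples of 0x, 4x and 10x were at 100% and all 6 of 2x were at 0%. In a bin 780 bp upstream of Irx2, also with 2 CpG sites which overlaps Gm20554, all 6 samples of 2x were at 100%, all 4 of 4x at 0%, and 0x was at 0%, 38.6%, 0% and 28.3%. Where a group is held at 0 or 100 the number of samples that were measured is unknown.

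In all deposited homeobox bins that vary (715), 45, 18 and 23 were called in 2x, 4x and 10x, which is 6.29%, 2.52% and 3.22%, against 14%, 9.99% and 10.8% of 701483 bins. In 2x 29 rose and 16 fell, in 4x 12 rose and 6 fell, and in 10x 9 rose and 14 fell. Of these calls 38, 15 and 23 had a repeated value in 1 of the compared groups, a further 7 in 2x had a group held at 1 value, and 3 in 4x had neither. A value that recurs lowers the spread within its group, and the part of this in the calls was not tested.

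Pax8, a regulator of thyroid and kidney, shows what such bins hold. Of its 5 bins, 1 was at 100% in all 20 samples and 4 had repeated values. In the bin 149 bp downstream of the TSS, with 1 CpG site, all 14 samples of 0x, 2x and 4x held 12.6% and all 6 of 10x held 100%. How 0x, 2x and 4x came to share a value is not known, since fills are described as made within each group. In the bin 449 bp downstream every sample of 0x and 2x was at 50%, of 4x at 0% and of 10x at 100%. Over all its deposited bins Pax8 was at 41.5%, 39.7%, 29.1% and 70.1% in 0x, 2x, 4x and 10x, the highest of the 48 genes in each group, and none of its bins was measured without repetition in a way that allows a test.

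Across the 817 bins, 13 (1.59%) were at 50% or more in 0x, against 28.63% of all promoter bins. They included bins at 100% in all samples in Pax3, Pax8 and Pitx3, and the Dlx4 bin. In 6 of the 13 the 2x samples were all at 0%, among them bins of Six6, Irx4, Nkx2-9, Nkx6-2 and Emx2. The share of such bins among all promoter bins was not computed, so no loss particular to these genes can be read from it. Over all deposited promoter bins too, the share at exactly 0 was highest in 2x (median 51.46%, against 46.62% in 0x). How many samples were measured where a group is held at 0 is unknown.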

How the data were processed

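The deposited values were percent methylation per 100 bp bin and sample. Per the methods and the submitters' processing notes, the authors used Trim Galore 0.4.3 (base quality over 25), Bismark 0.23.1 against mm10, and methylKit 1.22.0 with at least 10 reads per site, and filled missing bins with the group mean. Depth is unknown, so no value could be weighted by it, and filling narrows the spread within a group. Groups came from the labels. Bins within 1 kb of a RefSeq TSS (GRCm38.p6) of a listed gene were kept. The main set leaves out bins with a group held at 1 value or with an intermediate value recurring in a group; a fill in 1 sample alone goes unseen.

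The contrast of a treated group with 0x was fitted on those groups, and the slope over cycles on all 4, by limma 3.58.1 (R 4.3.3) on the percent values, with Benjamini-Hochberg adjustment over all bins or genes. Promoter values are means over the bins of a gene. Genes named are the 5 highest and 5 lowest in 0x, the 4 largest increases and decreases per comparison, and 2 bins in each direction; others are those with an unadjusted p under 0.05, at least 20% in 0x, or no overlap, chosen after their values were seen. The members and lists were chosen with earlier results of these data known. Fits were tested on simulated data. Figures were drawn with matplotlib 3.10.9 under Python 3.11.15, from pandas 2.3.3 frames. Alternatives were other sets of bins, windows of 500 bp and 2 kb, curated transcripts only, a log2 ratio scale with an offset of 1 point, a variance trend, 1 fit of all groups, the label-number series as a block, no minimum difference, unadjusted p, and leaving out each sample.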

Additional observations from a re-analysis of the deposited data

Results flagged for a closer look

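In 10 of 96 groups of samples tested, 1 sample lay far from the rest of its group, each time in the promoter of a named gene. Chance gives about 1 in 20 for values without a lower bound, which does not hold here, since in 4 of the 10 all other samples were at 0 and any value above 0 stands apart; the number is a description. After 2 cycles these were Msx1 at 20.7% in sample 04 (the others 0% to 3.70%), Nkx2-1 at 23.1% (3.08% to 10.2%) and Pitx1 at 39.3% (7.60% to 16.7%) in sample 03, and Nkx2-9 at 23.6% (2.78% to 4.17%) and Pax3 at 12% (0% in the other 5) in sample 18. After 10 cycles sample 33 was highest for Dlx6 at 16.6% (5.49% to 7.71%) and Nkx2-3 at 29.4% (0% in the other 5). In 0x they were Msx1 at 6.51% in sample 14 (0% to 0.221%) and Nkx2-3 at 13.5% in sample 13 (0% in the other 3), and in 4x Vax2 at 6.60% in sample 06 (0% in the other 3). In each of these 10 the sample was above its group.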

How the results depend on the processing

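The result of 0 homeobox bins and 0 promoters called, in the 3 comparisons and for the slope, held where at least 3 groups vary, with a window of 500 bp or 2 kb, curated transcripts, the log2 ratio, a variance trend, the label-number series as a block, and without each sample in turn (lowest and highest count 0 and 0). It held in the 3 comparisons with 1 fit of all groups, and for bins with no minimum difference, which were not run for the slope. In the bins without a repeated value, with groups held at 0 or 100 kept, 2 bins and 1 promoter were called in 2x and 1 bin in 4x. In all deposited bins 45, 18 and 23 bins and 4, 3 and 2 promoters were called in 2x, 4x and 10x, with 31 bins and 2 promoters for the slope. With repeated values set to missing there were 5, 1 and 1 bins in 2x, 4x and 10x, 1 promoter in 2x and 1 in 10x, and 6 bins and 1 promoter for the slope. The promoter and slope counts of these wider sets have no share over all bins or genes beside them. The same is true of all counts with repeated values set to missing. Such counts cannot be read as more or fewer than other promoters show. At an unadjusted p there were 1, 1 and 4 bins in 2x, 4x and 10x, 1 promoter in 4x and 3 in 10x, and 6 bins and 1 promoter for the slope. The 2x difference in mean methylation was -0.534 points in the bins without a repeated value, -0.0937 where at least 3 groups vary, 0.120 in all deposited bins and -0.510 with repeated values set to missing. Among label numbers 01 to 12 the differences were -0.521 points in 4x and -0.413 in 10x, and among 13 to 34 0.265 and 0.804. The mean over genes gave 0.218 in 4x, and the 2 kb window -0.102 in 10x. Leaving out each sample gave a 2x difference of 0.752 to 1.33 points, a 4x difference of -0.411 to 0.123 and a 10x difference of -0.0961 to 0.438. The cause was not tested. Of 669 values of single promoters that an alternative altered, 582 kept their sign and 87 turned, 34 moved by more than the spread between samples, and 3 passed the threshold, all in all deposited bins (Irx1 in 4x, and Msx1 and Vax1 in 2x at adjusted p = 0.0454 and 0.00498 in limma). No paired analysis was possible because no label number is shared between groups. With no read numbers, a low value cannot be told from one of few reads.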
